A study of Mus musculus with 24 samples.

Results

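Of the 1665620 peaks in 16 CUT&RUN peak lists, 2185 (0.131%) lay on sequence that the mouse assembly mm10 does not place within a chromosome. They were taken by name alone: every peak whose sequence name was not a chromosome from 1 to 19, X, Y or M. They fell on 38 scaffolds. Of these, 17 were unlocalised (assigned to a chromosome but to no position on it, written chr1_GL456210_random) and 21 were unplaced (assigned to no chromosome, written chrUn_GL456393). MEF2C contributed 174 of its 205769 peaks, on 26 scaffolds. H1.0 contributed 1238 of 1255089 peaks, on 37 scaffolds, and H3K9me3 contributed 773 of 204762 peaks, on 34 scaffolds.

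CUT&RUN maps a protein by releasing, with an antibody-tethered nuclease, the DNA around it. Per the labels, the cells were mouse embryonic fibroblasts of the iMGT-Myh6-eGFP line, in which doxycycline induces Mef2c, Gata4 and Tbx5 and eGFP reports on Myh6, a cardiac myosin gene. All day 1 cells were transfected with siRNA 1 day before 1 µg/mL doxycycline was added, and were collected on day 1. Ground-state cells were not reprogrammed, and the labels give them neither siRNA nor doxycycline, so the states differ in transfection as well as in induction. MEF2C was mapped at day 1 under siJunb (n = 3), siH1f0 (n = 3) and siControl (n = 2). H1.0 and H3K9me3 were each mapped at day 1 under siControl (n = 2) and in the ground state (n = 2). The labels list 8 further IgG samples, which were not analysed here, and the knockdown of Junb and H1f0 was not checked.

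Unlocalised and unplaced scaffolds are pieces of assembled sequence that could not be ordered, often because they consist of repeats or of copies that look alike, so reads on them can come from more copies than the assembly holds. H3K9me3 is the histone mark of constitutive heterochromatin and is known for covering repeats. H1.0, encoded by H1f0, is a linker histone that binds DNA where it enters and leaves the nucleosome and accumulates in non-dividing and differentiated cells. MEF2C is a muscle transcription factor and, with GATA4 and TBX5, turns fibroblasts towards cardiomyocyte-like cells. JUNB is a member of the AP-1 family of transcription factors.

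The 3 targets covered scaffolds to very different extents. H3K9me3 peaks of all lists together covered 1454 kb, H1.0 peaks 1205 kb and MEF2C peaks 203 kb. Measured up to the last base that any peak reached, the scaffolds spanned 4.23 Mb, of which H3K9me3 peaks covered 34.4%, against 16.1% of chromosomes 1 to 19, X and Y measured in the same way. H1.0 peaks covered 28.5% of the scaffold span, against 55.1% of the chromosomes. MEF2C peaks covered 4.81% of the scaffold span, against 7.03% of the chromosomes. These values are for all lists together, and the reached chromosomes spanned 2722 Mb. In single H1.0 lists scaffolds took 0.0777% and 0.927% of peak length at day 1, and 0.426% and 0.0783% in the ground state. In single MEF2C lists they took 0.00477% to 0.244%. Some single lists of both targets were thus denser on scaffolds than on chromosomes. Scaffold lengths were not used here, so the shares of span are of the reached span and not of the assembled sequence.

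**Figure D1:**
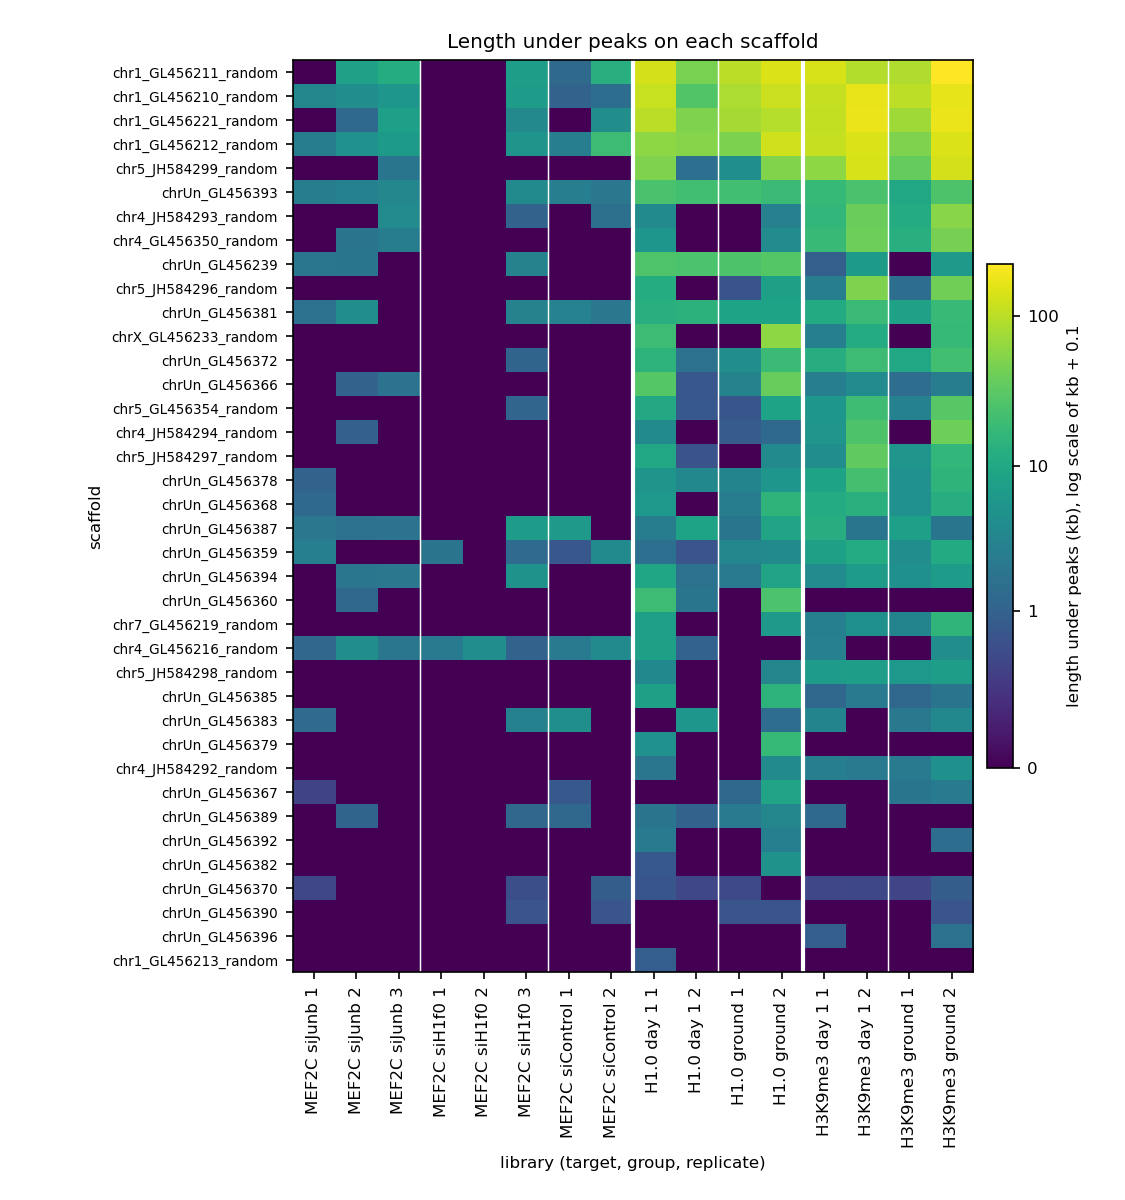
Length under peaks (kb, colour on a log scale of kb + 0.1) on each of the 38 scaffolds (rows, longest total length at the top) in each of the 16 libraries (columns, by target, group and replicate). The 4 large chromosome 1 scaffolds are bright in every H1.0 and H3K9me3 library, and siH1f0 replicates 1 and 2 are empty but for 1 or 2 scaffolds each.

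A few chromosome 1 scaffolds held much of this length. The scaffolds chr1_GL456211_random, chr1_GL456221_random, chr1_GL456210_random and chr1_GL456212_random held 54.4% of the H1.0 length. With chr5_JH584299_random, they were the first 5 scaffolds of both H1.0 (61.3% of its length) and H3K9me3 (62.7%). The first 5 of MEF2C were the same 4 chromosome 1 scaffolds and chrUn_GL456393, with 61.4% of its length. H3K9me3 reached 96.2% of the span of chr1_GL456211_random, 93.8% of chr1_GL456221_random, 98.2% of chr1_GL456212_random and nearly all of chr1_GL456210_random. H1.0 reached 77.8% to 91.5% of these 4 spans, and MEF2C 8.18% to 23.6%. Without the chromosome 1 scaffolds, H3K9me3 covered 20.5% of the remaining span, H1.0 15.9% and MEF2C 2.71%.

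Blocks on these scaffolds were cut differently by different lists. On chr1_GL456210_random, day 1 replicate 2 had 1 H3K9me3 peak of 169.7 kb. Day 1 replicate 1 had 48 H3K9me3 peaks covering 112.8 kb. In the ground state, replicate 1 had 23 H3K9me3 peaks covering 102.6 kb and replicate 2 had 2 peaks covering 167.9 kb. The number of peaks therefore did not follow the length they covered, so the comparisons of amount between groups use lengths. Ranks, shares of peaks touching another target and recurrence are given over peaks or merged regions.

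The scaffolds also differed in which targets they carried. All 4 H1.0 and all 4 H3K9me3 lists had a peak on 14 of the 38 scaffolds. H3K9me3 was in all of its lists on 24 scaffolds and H1.0 in all of its lists on 16. MEF2C was absent from 12 scaffolds and in all 8 of its lists on 1, chr4_GL456216_random. No scaffold had a peak in every list of every target.

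Unlike scaffolds show the range. On chrUn_GL456239, H1.0 covered 26.5 and 24.96 kb at day 1, against 25.9 and 29.0 kb in the ground state, of a span of 40.1 kb. H3K9me3 on chrUn_GL456239 covered 0.913 and 6.55 kb at day 1, against 0 and 6.36 kb in the ground state. Total H1.0 length was thus similar in all 4 libraries there, although those libraries differed from 28.8 to 1110 Mb in the total length of their peaks. The positions were not the same. At chrUn_GL456239:1-28452, H1.0 covered 26493 and 17216 bp at day 1, against 25052 and 21100 bp in the ground state. The region chrUn_GL456239:32133-40056, with maxima of 42 and 44, was held by day 1 replicate 2 and ground-state replicate 2 only. On chrUn_GL456360, H1.0 covered 19.6 and 1.87 kb at day 1, against 0 and 25.1 kb in the ground state, and no H3K9me3 list had a peak. The scaffolds chr1_GL456213_random, chrUn_GL456379 and chrUn_GL456382 likewise held H1.0 peaks and no H3K9me3 peak. The opposite, H3K9me3 without H1.0, was found on chrUn_GL456396, with 2 peaks over 2.63 kb. On chrX_GL456233_random, with a reached span of 334 kb, H1.0 covered 19.2 and 0 kb at day 1, against 0 and 58.6 kb in the ground state, and the libraries with a length of 0 were those with the shortest H1.0 lists.

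Among the peaks of their own list, scaffold H1.0 peaks ranked high, mostly through those on chromosome 1 and unplaced scaffolds. The maximum signal of each peak was ranked as a percentile within its list, because signal was not scaled between lists. Scaffold peaks had median percentiles of 81.5 and 90.9 at day 1 and of 96.1 and 71.9 in the ground state. The other H1.0 peaks of these libraries had medians of 41.4 to 54.4. Scaffold peaks were higher in 4 of 4 libraries, by 38.9 ± 8.50 percentile points (SD, n = 4), with an exact two-sided sign-flip permutation p of 0.125, the smallest that 4 libraries can give. By kind of scaffold, the medians on chromosome 1 scaffolds were 90.8 and 90.9 at day 1 and 96.1 and 81.5 in the ground state. On unplaced scaffolds they were 81.5 and 95.9 at day 1 and 99.02 and 87.8 in the ground state. On chromosome 5 scaffolds they were 43.6 and 38.8 at day 1 and 45.5 and 23.4 in the ground state, and on the chromosome X scaffold 20.4 at day 1 and 23.4 in the ground state in the 1 library of each state with peaks there. These last 2 kinds did not share the high ranks. In the highest 5% of each list lay 31.6% and 44.6% of scaffold peaks at day 1 and 55.3% and 21.5% in the ground state. The mean difference in median percentile between scaffold and other peaks was 43.6 points within the libraries whose file names start with M. It was 34.2 points within the others.

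H3K9me3 and MEF2C scaffold peaks ranked differently. For H3K9me3, scaffold peaks were higher than the other peaks in 3 of 4 libraries and equal in 1, by 13.6 ± 9.53 points (SD, n = 4, exact two-sided sign-flip permutation p = 0.25). For MEF2C, scaffold peaks were lower in 5 of 8 libraries and higher in 2, by a mean of -10.1 ± 16.8 points (SD, n = 8, exact two-sided sign-flip permutation p = 0.156, where 0.0078 was the smallest possible). No MEF2C scaffold peak lay in the highest 5% of its list. The median percentile of MEF2C scaffold peaks was 40.8, 48.9 and 60.2 under siJunb, 38.4, 66.0 and 43.4 under siH1f0, and 19.7 and 18.8 under siControl. Both siControl medians were below the 6 others, a pattern noticed after the values were seen and not tested, and the medians of siH1f0 replicates 1 and 2 rest on 2 peaks each. Median widths of scaffold and other peaks differed by less than the spread between libraries for each target, with exact two-sided sign-flip permutation p of 0.64 for MEF2C (n = 8), 0.62 for H1.0 (n = 4) and 0.5 for H3K9me3 (n = 4).

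**Figure D2:**
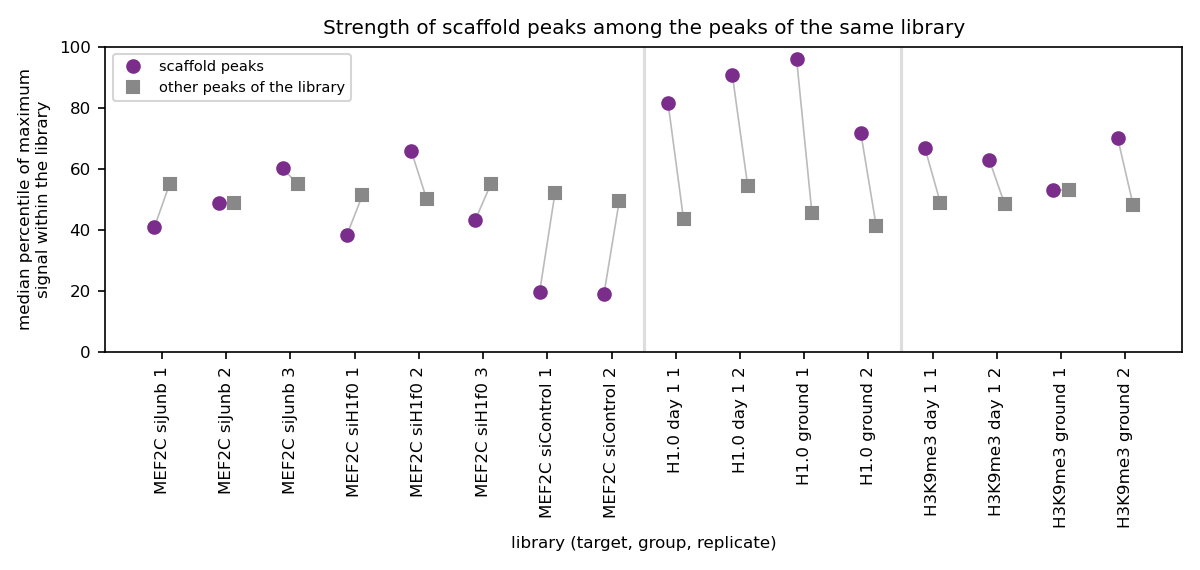
Median within-library percentile of maximum signal (vertical axis, 0 to 100) for scaffold peaks (circles) and all other peaks (squares) of each library (horizontal axis). The 4 H1.0 libraries have scaffold medians of 71.9 to 96.1, above all 4 medians of other peaks, and the siControl MEF2C libraries have the lowest scaffold medians.

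The comparison of states asked whether H1.0 or H3K9me3 on scaffolds differed between day 1 under siControl and the ground state. H1.0 covered 709 and 267 kb at day 1, against 397 and 869 kb in the ground state. The means were 488 ± 312 kb at day 1 and 633 ± 334 kb in the ground state (SD, n = 2 each, exact two-sided permutation p = 0.667, where 0.333 was the smallest possible). The ranges overlapped, and the file-name series separated the values more than the state did. Within the M series, H1.0 covered 267 kb at day 1, against 397 kb in the ground state, and within the other series 709 kb against 869 kb. As a share of the length of all peaks, scaffolds took 0.927% at day 1 and 0.426% in the ground state in the M series, and 0.0777% at day 1 and 0.0783% in the ground state in the other series.

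H3K9me3 covered 696 and 1082 kb at day 1, against 457 and 1253 kb in the ground state. The means were 889 ± 273 kb at day 1 and 855 ± 563 kb in the ground state (SD, n = 2 each, exact two-sided permutation p = 1, where 0.333 was the smallest possible). In length, the series moved in opposite directions. In the M series, 27 of 32 scaffolds had more H3K9me3 length at day 1 than in the ground state and 4 had less. In the other series, 13 of 33 had more at day 1 and 20 had less. As a share of the length of all H3K9me3 peaks, however, scaffolds took less at day 1 in both series. The share was 0.632% at day 1 and 0.689% in the ground state in the M series, and 0.297% and 0.396% in the other series. Total H3K9me3 peak length in the M series was 110 Mb at day 1 and 66.3 Mb in the ground state. For H1.0, 9 of 26 scaffolds had more length at day 1 and 17 had less in the M series, and 15 of 37 had more and 22 had less in the other series. The day 1 libraries of both targets had peaks on scaffolds where the ground-state library of their series had none, and the reverse, on 0 to 6 scaffolds each.

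**Figure D3:**
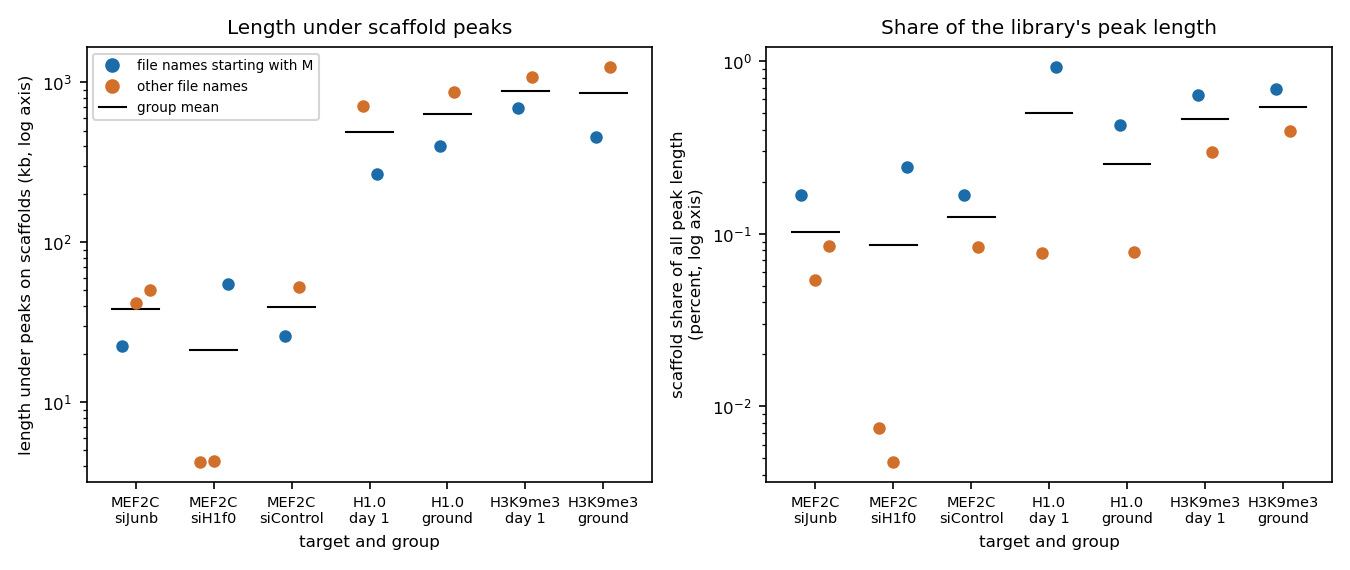
Length under scaffold peaks (left, kb, log axis) and that length as a percent of all peak length of the library (right, log axis) for each library (points) by target and group, with the group mean (line) and the file-name series (colour). The file-name series lies apart within each group, and siH1f0 replicates 1 and 2 lie lowest at 4.24 and 4.28 kb.

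Position by position, a larger share of H1.0 regions recurred in all libraries on scaffolds than on chromosomes, a description with no test. Merged over the 4 lists, H1.0 peaks formed 443 scaffold regions, of which 58 (13.1%) were held by all 4 libraries, against 1.64% of the regions on chromosomes. The strongest of these by median percentile were chrUn_GL456393:11950-23348, chrUn_GL456393:33502-38142, chr1_GL456221_random:90782-117677, chr1_GL456210_random:30501-34869 and chrUn_GL456393:28930-32633. The first had a maximum signal of 53 and 35 at day 1, against 54 and 33 in the ground state, and lay above the 99.8 percentile in all 4 lists. Of the 1205 kb under any scaffold H1.0 peak, 67.9 kb (5.63%) lay under peaks of all 4 libraries, against 0.219% on chromosomes. A further 18.8 kb (1.56%) lay under both day 1 libraries and neither ground-state library, against 0.268% on chromosomes. Another 59.5 kb (4.94%) lay under both ground-state libraries and neither day 1 library, against 0.997% on chromosomes. These shares divide by the length under any list, and 2 lists alone had 912 and 1110 Mb. Set against the shorter list of each state, the 1-state lengths were not in excess on scaffolds. They were 18.8 of 267 kb (day 1 replicate 2) and 59.5 of 397 kb (ground-state replicate 1). On chromosomes they were 4024 kb, of a list of 28.8 Mb, and 14957 kb, of 93.4 Mb. The length under all 4 libraries was 67.9 of 267 kb, against 3284 kb of 28.8 Mb.

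H1.0 regions held in 1 state only were few, and some of them ranked high among the regions of their kind in the series. Over the whole series, 0.458% of H1.0 regions were held by both day 1 libraries and no ground-state library, and on scaffolds 6 of 443 (1.35%) were. The reverse held for 0.380% of all regions and for 5 of 443 (1.13%) on scaffolds. Both scaffold shares were above those of the series, as was the share of regions held by all libraries given above. All these shares divide by the regions of any list, including lists of 722803 and 413158 peaks. By length, and against the shorter list of each state as given above, the 1-state shares were not above those of chromosomes. Ranked by median percentile among the 2861 regions held at day 1 only, chrUn_GL456381:6988-12462 was at rank 2, chrUn_GL456393:49345-54391 at rank 5 and chrUn_GL456393:54526-55655 at rank 11. Of the 6 day 1 regions, 2 reached the 99th percentile, against 8 of 2855 on chromosomes. High ranks were not particular to these regions, since 21.5% to 55.3% of all scaffold H1.0 peaks lay in the highest 5% of their lists. These counts depend on every library: the day 1 count was 24 without day 1 replicate 1, 135 without day 1 replicate 2, 13 without ground-state replicate 1 and 20 without ground-state replicate 2. The 3 named day 1 regions were still held at day 1 only when peaks had to cover at least 0.5 of a region, when peaks within 500 bp were merged, in the stronger 0.5 of each list, and in lists cut to equal length.

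The region on chrUn_GL456381 is 5475 bp long. Its maximum H1.0 signal was 39 and 34 at day 1, at the 99.98 and 99.95 percentiles of those lists, and no H1.0 peak lay in it in the ground state. All 4 H1.0 libraries did have a peak on the same scaffold a few kilobases downstream, with a maximum signal of 14 and 5 at day 1, against 17 and 9 in the ground state. H3K9me3 lay in the region in 4 of 4 libraries, with peak maxima up to 9 and 37 at day 1, against 7 and 53 in the ground state. A change of state was thus listed there for H1.0 and not for H3K9me3. MEF2C peaks touched the region in 5 of 8 libraries.

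On chrUn_GL456393, the same pattern stood at the far end of the scaffold. Between bases 49345 and 54391 the maximum H1.0 signal was 20 and 23 at day 1, and between 54526 and 55655 it was 13 and 10, with no H1.0 peak there in the ground state. Elsewhere on the same scaffold, H1.0 peaks recurred in all 4 libraries, as given above. H3K9me3 lay in the larger region in 4 of 4 libraries. Ground-state replicate 2 alone had an H1.0 peak of 7109 bp with a maximum of 77 at chrUn_GL456393:38617-45725. The other 3 H1.0 lists, ground-state replicate 1 among them, had none there.

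**Figure D4:**
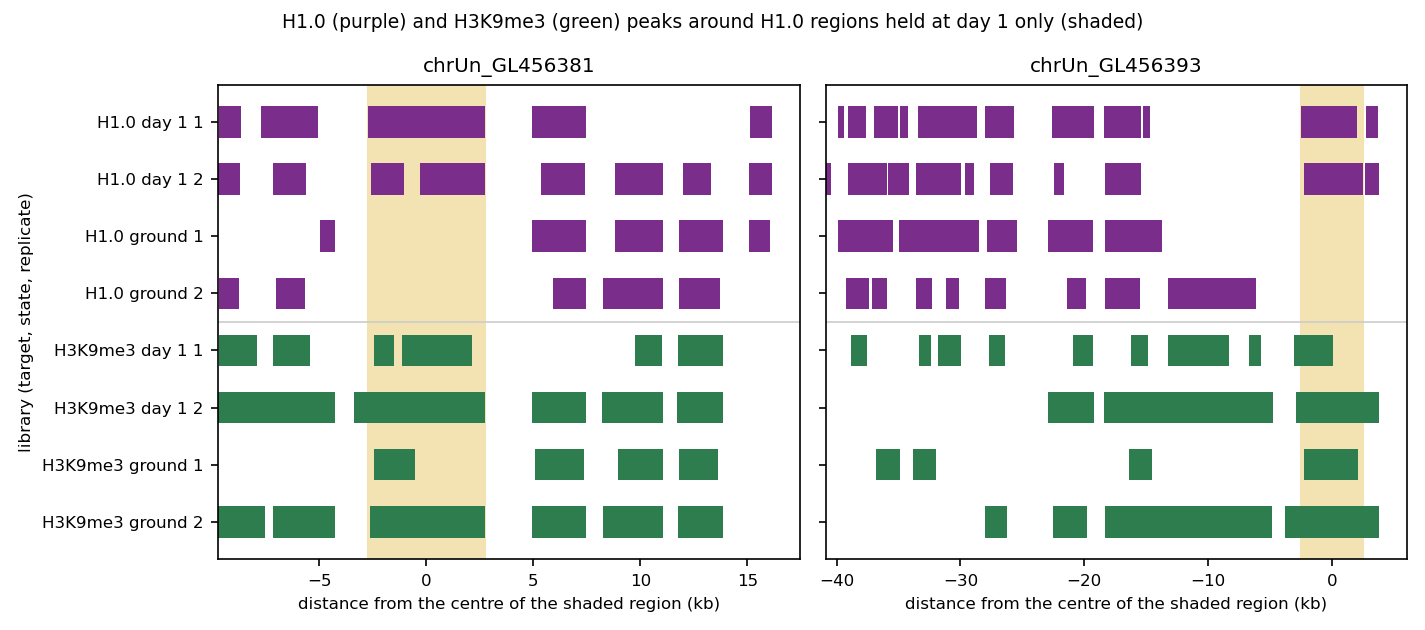
H1.0 peaks (purple) and H3K9me3 peaks (green) as bars along chrUn_GL456381 (left) and chrUn_GL456393 (right), with one row per library and the distance in kb from the centre of an H1.0 region held at day 1 only (shaded). Both day 1 H1.0 rows have bars in the shaded region and both ground-state H1.0 rows have none, while all 4 H3K9me3 rows have bars there.

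The other day 1 regions were weaker. At chr1_GL456221_random:26561-27509 the maximum was 8 and 8, at rank 51 of 2861. At chr5_JH584299_random:454053-454925 it was 5 and 5, at the 20.4 and 54.4 percentiles of the day 1 lists. At chr5_JH584299_random:824326-825324 it was 5 and 3, low in both lists (percentiles 20.4 and 3.99). Each of these 3 was still called under 2 of the 4 alternative settings just named.

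Of the 5 regions held in the ground state only, 1 ranked 6 and another ranked 14 of 2372 such regions by median percentile. The short scaffold chrUn_GL456390, reached up to base 663, had an H1.0 peak over bases 1 to 658 with a maximum of 15 and 151 in the ground state and no peak at day 1, and it was the one at rank 6. Its maximum of 151 was the highest of any scaffold H1.0 peak. H3K9me3 had a peak there in ground-state replicate 2 alone, and MEF2C in siH1f0 replicate 3 and siControl replicate 2. The call held under all 4 alternative settings. At rank 14 was chr1_GL456212_random:49068-51394, with a maximum of 11 and 12 in the ground state. The others were chr1_GL456212_random:8872-10236 (maximum 11 and 7 in the ground state), chr1_GL456212_random:141077-142337 (9 and 8) and chr5_JH584299_random:293566-294948 (5 and 7), and neither these nor the region at rank 14 held under more than 2 of the 4 settings. Without 1 library, the ground-state count was 29 without day 1 replicate 1, 13 without day 1 replicate 2, 73 without ground-state replicate 1 and 17 without ground-state replicate 2.

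No merged H3K9me3 scaffold region was held in 1 state only, although stretches within regions were. Of 172 merged H3K9me3 regions on scaffolds, 0 were held by both day 1 libraries and no ground-state library, where 2.15% of all regions in the series were. Likewise 0 of 172 were held by both ground-state libraries and no day 1 library, where 0.464% of all regions were. Counted by bases, 17.0 kb (1.17% of the scaffold length under any H3K9me3 peak, against 1.84% on chromosomes) lay under both day 1 libraries and neither ground-state library. The reverse held for 22.3 kb (1.53%, against 0.242% on chromosomes). These stretches lie within merged regions, the longest of which spans 169.7 kb, that had a peak of the other state elsewhere in them. All 4 libraries held 44 regions (25.6%), against 19.3% on chromosomes. By median percentile, the first 5 of these 44 were chrUn_GL456393:33502-47089, chr4_JH584293_random:81439-88389, chrUn_GL456359:17326-22947, chr1_GL456221_random:40058-176231 and chrUn_GL456370:18634-19263. At chr4_JH584293_random:81439-88389 the maximum was 11 and 76 at day 1, against 24 and 55 in the ground state, at percentiles of 93.2 to 98.7. The first region, on chrUn_GL456393, ranked high in 3 lists but at percentile 10.6 in ground-state replicate 1. The strongest scaffold H3K9me3 peak of a list lay at the end of chr4_JH584292_random in 3 of 4 lists, day 1 replicate 2 and both ground-state replicates, each above the 99.7 percentile. The counts held in 1 state moved without 1 library. The day 1 count was 8 without day 1 replicate 1, 22 without day 1 replicate 2 and 24 without ground-state replicate 2, and it remained 0 without ground-state replicate 1. The ground-state count was 3 without day 1 replicate 1, 4 without day 1 replicate 2, 40 without ground-state replicate 1 and 2 without ground-state replicate 2.

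The knockdown comparisons asked whether MEF2C on scaffolds differed at day 1 under siJunb or siH1f0. MEF2C covered 22.4, 41.6 and 50.6 kb of scaffold under siJunb, 4.24, 4.28 and 55.2 kb under siH1f0, and 26.0 and 52.7 kb under siControl. The means were 38.2 ± 14.4 kb under siJunb (n = 3), 21.2 ± 29.4 kb under siH1f0 (n = 3) and 39.4 ± 18.9 kb under siControl (n = 2, SD). Exact two-sided permutation p was 0.9 for siJunb (n = 3) against siControl (n = 2), 0.6 for siH1f0 (n = 3) against siControl and 0.4 for siJunb against siH1f0, with 0.1 the smallest possible in each. None of the 10 comparisons of length or share of length, states and knockdowns together, reached 0.05, and none of these designs could. As a share of all MEF2C peak length, scaffolds took 0.167%, 0.0538% and 0.0854% under siJunb, 0.00751%, 0.00477% and 0.244% under siH1f0, and 0.167% and 0.0833% under siControl.

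Within siH1f0 the libraries did not resemble each other on scaffolds. Replicates 1 and 2 had 2 scaffold peaks each, in lists of 22872 and 35605 peaks, and replicate 3 had 42 on 18 scaffolds in a list of 17913. Replicate 1 had its peaks on chr4_GL456216_random and chrUn_GL456359, and replicate 2 had both on chr4_GL456216_random. All other MEF2C lists had 21 to 33 scaffold peaks on 11 to 15 scaffolds. Replicate 3 is the only siH1f0 library whose file name starts with M. In that series it covered 55.2 kb, against 26.0 kb under siControl, while in the other series siH1f0 replicates 1 and 2 stood against 52.7 kb under siControl. Within the M series, siJunb covered 22.4 kb, against 55.2 kb under siH1f0. Within the other series, siJunb covered 41.6 and 50.6 kb, against 4.24 and 4.28 kb under siH1f0. The sign of the siH1f0 difference was therefore opposite in the 2 series, and series and replicate cannot be told apart here.

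MEF2C scaffold regions mostly belonged to 1 library. The 174 peaks merged into 123 regions, of which 95 (77.2%) were held by 1 library, against 56.4% on chromosomes. Of the regions of a library, 28.6% to 61.9% were also held by another MEF2C library in the 6 libraries with more than 2 scaffold peaks, against 50.4% to 91.4% of their chromosome regions. In each of these 6 libraries the scaffold share was the lower one. All 8 libraries held 1 region (0.813%), against 5.58% on chromosomes.

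That region was chr4_GL456216_random:15295-18113, 2819 bp long. Its maximum MEF2C signal was 11, 16 and 16 under siJunb, 17, 27 and 13 under siH1f0, and 10 and 45 under siControl. In percentiles of each list, this was 84.9, 94.7 and 88.8 under siJunb, 51.4, 77.7 and 84.3 under siH1f0, and 60.3 and 84.3 under siControl, so the groups overlapped. It held no base under an H1.0 or an H3K9me3 peak in any of the 8 lists of those targets. A second MEF2C region just upstream, chr4_GL456216_random:12942-14995, was held by siJunb replicate 2, siH1f0 replicate 2 and siControl replicate 2, again with no H1.0 and no H3K9me3 peak. Elsewhere on this scaffold H1.0 had 7 peaks at day 1 in replicate 1 and 1 in replicate 2, against none in the ground state. H3K9me3 had 1 peak at day 1, in replicate 1, and 2 in ground-state replicate 2.

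The regions held by 5 and by 4 libraries had bases under both H3K9me3 and H1.0 peaks, as did 6 of the 7 held by 3, the exception being the upstream region just given. The region chrUn_GL456359:18064-22444 was held by 5 libraries, and all 4 H1.0 and all 4 H3K9me3 lists had a peak in it. At chrUn_GL456381:7109-9295, held by 4 libraries, H3K9me3 was present in 4 lists and H1.0 in the 2 day 1 lists. At chrUn_GL456370:18489-19359, held by siJunb replicate 1, siH1f0 replicate 3 and siControl replicate 2, the maximum was 12, 16 and 28, at a median percentile of 88.1.

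Regions that met the rule for a knockdown difference were rare. In the comparison of siJunb with siControl, 0.296% of all MEF2C regions were held by all siJunb libraries and no siControl library, and on scaffolds 0 of 100 were. The reverse held for 2.29% of all regions and for 3 of 100 on scaffolds, a share near that of the series. In the comparison of siH1f0 with siControl, 0.788% of all regions were held under siH1f0 only, and on scaffolds 0 of 66 were. The reverse held for 0.442% of all regions and for 2 of 66 on scaffolds. Between siJunb and siH1f0, 0.138% of all regions were held under siJunb only and 1.48% under siH1f0 only, and on scaffolds 0 of 103 were in either direction.

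Held under siControl and not under siJunb were chr1_GL456211_random:113963-118664 (maximum 5 and 11 in the siControl libraries), chr1_GL456212_random:119254-121001 (6 and 11) and chrUn_GL456393:40709-42736 (11 and 18). The last 2 were also the regions not held under siH1f0, a comparison that shares its siControl libraries, and the first was held by siH1f0 replicate 3. All 3 were low or middling in the siControl lists, at percentiles of 9.37 to 66.7. In the stronger 0.5 of each list, and in lists of equal length, none of the 3 was called. Leaving out a siControl library gave 13 (without replicate 1) and 18 (without replicate 2) under siJunb, and 12 (without replicate 1) and 13 (without replicate 2) under siH1f0.

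MEF2C peaks on scaffolds touched H3K9me3 in larger shares than MEF2C peaks elsewhere, although the adjusted test did not pass. H3K9me3 was mapped under siControl and in the ground state only, so its lists of both states stand for all MEF2C groups. Of the 123 scaffold regions, 110 (89.4%) touched an H3K9me3 region, against 13.7% on chromosomes. Per library, the share of scaffold MEF2C peaks touching H3K9me3 was 91.3%, 72.7% and 92.9% under siJunb, 50%, 0% and 95.2% under siH1f0, and 73.9% and 90.5% under siControl. The share of the other MEF2C peaks was 7.98% to 13.7% in these libraries. Scaffold peaks were higher in 7 of 8 libraries, with a mean of 70.8 ± 32.4% against 10.2 ± 1.99% (SD, n = 8, exact two-sided sign-flip permutation p = 0.0156, where 0.0078 was the smallest possible). The exception was siH1f0 replicate 2, where 0 of 2 scaffold peaks touched H3K9me3. With Benjamini-Hochberg adjustment over the 10 comparisons of scaffold with other peaks, the permutation p was 0.078, above 0.05. Merged H3K9me3 regions covered 93.8% or more of the span of each of the 4 large chromosome 1 scaffolds. Touching was therefore nearly fixed for any peak there, and the test was chosen after the values were seen. The difference was 52.5 points without the chromosome 1 scaffolds. It was 41.5 points when only H3K9me3 regions held by all 4 lists were used.

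**Figure D5:**
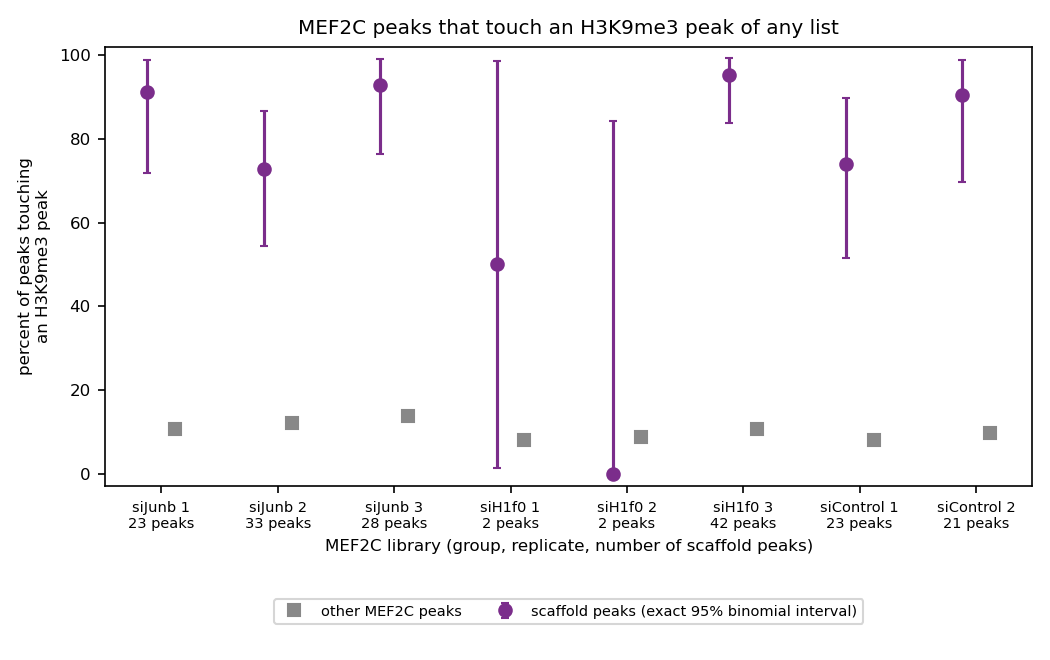
Percent of MEF2C peaks that touch an H3K9me3 peak of any list, for scaffold peaks (circles with exact 95% binomial intervals) and other MEF2C peaks (squares) of each library, whose number of scaffold peaks is given below its name. The 6 libraries with 21 or more scaffold peaks lie at 72.7% to 95.2%, above 7.98% to 13.7% for other peaks, and siH1f0 replicates 1 and 2 have 2 peaks each and wide intervals.

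H1.0 scaffold peaks touched H3K9me3 in larger shares than H1.0 peaks elsewhere, in a design too small to reach 0.05. The share was 72.3% and 88.8% at day 1, and 91.5% and 69.6% in the ground state, against 17.0% to 20.0% of the other H1.0 peaks. It was higher in 4 of 4 libraries, by 62.8 ± 12.3 points (SD, n = 4, exact two-sided sign-flip permutation p = 0.125, the smallest possible). On the 4 large chromosome 1 scaffolds, which H3K9me3 covered nearly throughout, touching was again nearly fixed. Without the chromosome 1 scaffolds the difference was 37.3 points. In length, 73.7% of H1.0-covered scaffold sequence was also covered by H3K9me3, against 14.7% on chromosomes, and 61.1% of H3K9me3-covered scaffold sequence was covered by H1.0, against 50.4% on chromosomes. Counted by regions the order of the last pair was opposite, with 59.3% of H3K9me3 scaffold regions touching H1.0, against 87.4% on chromosomes. Per library, the share of H3K9me3 scaffold peaks touching H1.0 was 83.8% and 76.2% at day 1 and 89.6% and 65.1% in the ground state. The mean difference from other H3K9me3 peaks was -4.52 ± 16.6 points, with scaffold peaks lower in 2 of 4 libraries (SD, n = 4, exact two-sided sign-flip permutation p = 0.625, where 0.125 was the smallest possible).

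For MEF2C and H1.0 the direction depended on how overlap was counted. When every H1.0 peak counted, the mean shares of peaks touching H1.0 were 72.2 ± 32.7% for scaffold peaks and 95.3 ± 1.34% for other peaks, lower in 8 of 8 libraries (SD, n = 8, exact two-sided sign-flip permutation p = 0.0078, the smallest possible, or 0.078 after Benjamini-Hochberg adjustment over 10 comparisons). Scaffold minus other peaks was -46.6 and -96.0 points in siH1f0 replicates 1 and 2, which have 2 scaffold peaks each, and -2.12 to -19.3 points in the other 6 libraries. Its mean was -19.7 points without siH1f0 replicate 1 and -12.7 points without siH1f0 replicate 2, against -23.1 points with all 8. By merged regions, 91.9% on scaffolds and 95.1% on chromosomes touched H1.0. By bases, 82.6% of MEF2C-covered scaffold sequence lay under H1.0, against 78.9% on chromosomes. When only H1.0 regions held by all 4 lists were used, the share was 30.5 points higher on scaffolds. The cause of these differences between measures was not tested.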

How the data were processed

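CUT&RUN peak lists of 16 samples were used, 1 per sample. The submitters' processing notes name Bowtie2, SEACR and the build mm10. Versions, the handling of reads that map to several places, and the use of IgG as a threshold are not given in the sources used here. Handling of such reads bears on repeat-rich scaffolds, and its part in the results was not tested. The deposited values are signal, the authors' whole-number coverage summed over a peak and its maximum. No scaling between lists showed in them, so signal was used only to rank peaks within a list. Per the labels 30 M reads were sequenced per sample, and aligned depth is unknown, so precision was judged from list length (11754 to 722803 peaks) and the spread between samples. No chrM peak was listed, and the count of unused per-sample columns was 0.

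Peaks of a target that overlapped or touched were merged into regions, and 1 bp of a peak was enough for a library to count as holding a region. Positions count from 1 on mm10. A region counted as held in 1 group only when every library of that group and none of the other held it. Comparisons over samples were exact two-sided permutation tests, and scaffold peaks were set against the other peaks of the same library by exact sign-flip permutation tests, with a threshold of 0.05. The named scaffolds and regions were the first 5 by covered length or by median percentile, those shared by all lists, and every region held in 1 group only. The regions at chrUn_GL456239, chrUn_GL456360, chrX_GL456233_random, chr4_JH584292_random and the partly shared MEF2C regions were chosen after their values were seen, as were the tests of peaks touching another target. The members and lists were chosen with earlier results of these data known. The RefSeq table of genes (49997 rows) and that of promoters (32851 rows) name no scaffold (0 rows), so no gene is named and no sequence printed. Analyses ran in Python 3.11.15 with pandas 2.3.3, NumPy 2.4.6 and SciPy 1.17.1. The interval and permutation code was tested on simulated data, with 0 mismatches over 335 regions. File names form 2 series, those that start with M and the others, and what the series stand for is not given in the sources used here. The labels call the numbered replicates biological (BiolRep) and do not say which steps were repeated between them. Which sources of spread the p-values measure is therefore not known in detail. The intervals shown for shares cover counting error only. Alternatives were the stronger 0.5 of each list, lists of equal length, a required overlap of 0.5 of a region, merging within 500 bp, subsets of scaffolds, leaving out each replicate, a replicate block and the file-name series.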

Additional observations from a re-analysis of the deposited data

How the results depend on the processing

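None of the 10 comparisons of length or share of length between groups passed 0.05 under any alternative, and 32 of their 130 alternative values changed sign. For siJunb minus siControl, length was 12.8 kb in the stronger 0.5 of each list, 10.4 kb in lists of equal length and 5.38 kb without the scaffold with the most covered length, against -1.13 kb as reported, and share of length was 0.0349 and 0.0387 percentage points in the stronger 0.5 and in equal lists. For siH1f0 minus siControl the values in those 2 settings were 3.57 and 3.73 kb, and 0.0294 and 0.0154 points. Within the M series siH1f0 minus siControl was 29.2 kb and 0.0775 points, and siJunb minus siH1f0 was -32.8 kb and -0.0778 points. Day 1 minus ground state within the other series was -0.000573 points for H1.0 and -171 kb for H3K9me3, and H3K9me3 share in equal lists was 0.0336 points. The cause of these reversals was not tested.

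Leaving out 1 library at a time gave -14.5 to 12.2 kb and -0.0650 to 0.0186 points for siJunb minus siControl, -35.1 to -4.77 kb and -0.119 to 0.00230 points for siH1f0 minus siControl, and -0.0240 to 0.0958 points for siJunb minus siH1f0. It gave -381 to 90.6 kb and -0.174 to 0.675 points for H1.0, and -364 to 432 kb and -0.246 to 0.0901 points for H3K9me3. Where this leaves 1 library in a group, that library is assumed to vary like the others.

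Regions held under siControl only numbered 1 for siJunb and 1 for siH1f0 when 0.5 of a region had to be covered, and 0 and 0 both in the stronger 0.5 and in equal lists. Without 1 library they ranged over 3 to 18 for siJunb and 2 to 13 for siH1f0, and regions under siJunb only over 0 to 3 against siControl and 0 to 2 against siH1f0. H1.0 regions of the ground state only numbered 10 with 0.5 covered, 3 with merging within 500 bp, and 2 and 2 in the stronger 0.5 and in equal lists. H3K9me3 regions of the ground state only numbered 1 in the stronger 0.5 and 2 in equal lists. Without 1 library, regions of day 1 only ranged over 13 to 135 (H1.0) and 0 to 24 (H3K9me3), and regions of the ground state only over 13 to 73 (H1.0) and 2 to 40 (H3K9me3), since the rule is looser with fewer libraries.

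The log2 ratio of median widths was 0.0136 for MEF2C in the M series, and -0.0161 for H1.0 and -0.00155 for H3K9me3 in the other series. Without 1 library it ranged from -0.0494 to 0.00373 for MEF2C and from -0.00320 to 0.0785 for H1.0. MEF2C peaks touching H1.0 differed by -18.3 points with 0.5 of a peak required, with an unadjusted exact p of 0.078 in place of 0.0078, and by 30.5 points with H1.0 regions held by all lists. H3K9me3 peaks touching H1.0 differed by 8.45 points with 0.5 required, 29.3 with regions held by all lists and 9.60 within the M series, against -4.52 as reported, and by -10.0 to 1.18 without 1 library.

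Deviations of scaffold length of libraries with the same replicate number correlated at -0.636 for H1.0, 0.645 for H3K9me3 and -0.134 to 0.461 for MEF2C over 38 scaffolds. Libraries of the same file-name series deviated together for both H1.0, at 0.636, and H3K9me3, at 0.645. Same-numbered libraries share a series for H3K9me3 but not for H1.0. With 2 libraries in each group, the H1.0 values of the 2 pairings mirror each other. With 2 pairs each and no label that ties the numbers, same-numbered libraries were not taken as pairs. With the replicate block, siJunb minus siControl was -7.33 kb, siH1f0 minus siControl -35.1 kb, H1.0 day 1 minus ground state -145 kb and H3K9me3 34.0 kb, with no call changed. The crossed pairing of H1.0, added after the data were seen, gave -145 kb and no call. Groups of 2 or 3 libraries limit all of these values, and the depth of each library is unknown.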

Other observations

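Across the 38 scaffolds, the mean length covered per list by H1.0 and by H3K9me3 had a Spearman rho of 0.55, and of 0.33 over the 33 scaffolds outside chromosome 1. The corresponding rho was 0.44 for MEF2C and H3K9me3 and 0.48 for MEF2C and H1.0, and 0.18 and 0.24 outside chromosome 1. These are descriptions across scaffolds that share libraries and differ in span, and scaffolds are not replicates.

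Peak edges of different targets met at the same base more often on scaffolds than on chromosomes. Of 1526 distinct H3K9me3 peak edges on scaffolds, 30 (1.97%) were also an H1.0 peak edge of the same kind, against 0.284% on chromosomes. Of 344 distinct MEF2C edges on scaffolds, 8 (2.33%) were also an H3K9me3 edge, against 0.0357% on chromosomes. On chrUn_GL456381, for example, base 12462 was the last base of H1.0 peaks in both day 1 libraries and of H3K9me3 peaks in day 1 replicate 2 and ground-state replicate 2. The genome sequence and its gaps were not used here, and the part of scaffold ends and gaps in this was not tested.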
